A study of Homo sapiens with 12 samples.

Results

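The Tribbles genes TRIB1, TRIB2 and TRIB3 were followed by RNA sequencing in KP4, a human pancreatic ductal carcinoma cell line. The 3 genes were chosen by name, with their values in these libraries already known, and they are 3 of the 36601 genes in the deposited table. Wild-type KP4 cells in DMEM with serum were treated for 24 h with DMSO (the vehicle), 10 mM metformin (Met), 5 nM FK866 (FK) or both compounds at these doses (Met+FK), with 3 libraries per treatment. The paper reports p53 protein as undetectable in KP4 cells, so wild-type does not describe their p53 status. Metformin, a biguanide, blocks respiratory complex I in mitochondria, and FK866 inhibits NAMPT, the enzyme that recycles nicotinamide into NAD. Values are normalized counts, that is, read pairs divided by a scaling factor for each library. Because the genes were chosen on these values, their levels and differences are given as a description without a test.

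Tribbles proteins are pseudokinases: they keep the fold of a protein kinase but have little or no catalytic activity. They act as scaffolds, with a kinase-like domain that holds a substrate and a C-terminal tail that binds the ubiquitin ligase COP1, so that the substrate is degraded. C/EBPα is the best-known substrate of TRIB1 and TRIB2, and TRIB3 is known to bind the kinase AKT and the stress factor ATF4. TRIB3 is also a classical target gene of ATF4 and CHOP, the transcription factors of the integrated stress response, whereas TRIB2 has been described as a repressor of FOXO factors.

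The libraries held between 30667735 and 41052203 read pairs. The 3 genes were well covered, with at least 437 read pairs for TRIB2, 1325 for TRIB3 and 2340 for TRIB1 in every library. Of 9 ductal epithelial markers, 8 were detected (a mean of at least 10 normalized counts), while EPCAM was below this level. The summed level of the 9 markers was 25655 to 26704 in DMSO, 19778 to 23340 in FK, 16936 to 20029 in Met and 16650 to 19996 in Met+FK. This sum was mostly KRT18, with means of 18307 in DMSO and 10421 in Met. KRT7, KRT8, KRT19 and GATA6 also had lower means in Met than in DMSO, whereas SOX9, CDH1, MUC1 and EPCAM had higher ones. KRT19 and CDH1 were low, with means of 33.7 and 47.4 over all libraries. Of 8 markers of other cell types, only PTPRC was detected, and the summed level of these markers was 205 to 306 in DMSO, 212 to 310 in FK, 145 to 190 in Met and 105 to 168 in Met+FK. The part of these markers in the results below was not tested.

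TRIB3 showed the largest differences of the family. Its normalized counts were 1887, 1549 and 1355 in DMSO replicates 1 to 3, and 9741, 8766 and 10943 in the Met libraries. The metformin libraries lay far above the vehicle libraries without overlap. Groups without overlap were seen for 56.9% of the 15376 genes tested. This share, like the other shares of genes without overlap below, counts either direction and gaps of any size. The mean was 1597 ± 269 (SD, n = 3) in DMSO and 9817 ± 1091 in Met, a log2 difference of 2.63 (SE 0.12) or 6.18-fold. Only 26 of the genes tested had a larger log2 difference in this comparison, so TRIB3 ranked 27 of 15376. In bulk RNA of this kind, more transcript per cell and more cells with the transcript cannot be told apart.

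With FK866 alone the TRIB3 counts were 2082, 1669 and 1677, which overlapped the DMSO libraries. Same-numbered FK and DMSO libraries differed by 0.14, 0.11 and 0.31 on the log2 scale, all in the same direction. The log2 difference from DMSO was 0.19 (SE 0.12), about the size of the spread between replicates (SD 0.18 on the log2 scale). It was 0.07 without DMSO replicate 3 and 0.31 without DMSO replicate 1, and 0.39 once a trend of each library with GC content and length had been removed. TRIB3 transcripts are rich in GC, at 61.5% against a median of 48.5% over the genes tested. The mean slope of the log2 values on GC content was -0.10 per 10% GC in DMSO, against -0.33 in FK, -0.29 in Met and -0.24 in Met+FK. Single libraries ranged from -0.196 to -0.0427 in DMSO and from -0.484 to -0.236 in FK. The ranges of Met (-0.378 to -0.159) and Met+FK (-0.287 to -0.176) overlapped that of DMSO. The part of GC content in the FK866 difference was otherwise not tested.

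In the combination the TRIB3 counts reached 12607, 11856 and 13795, the 3 highest values of the 12 libraries. The mean of 12753 ± 978 (SD, n = 3) was 8.04-fold that of DMSO on the log2 scale of the fit, with a log2 difference of 3.01 (SE 0.12). Against Met alone the difference was 0.38 (SE 0.12), or 1.30-fold, and the groups did not overlap, which held for 13.4% of the genes tested. In this comparison 2.56% of the genes tested had a larger difference. The same-numbered libraries differed by 0.37, 0.44 and 0.33 on the log2 scale, all in the same direction. Against FK alone the difference was 2.82 (SE 0.12), again without overlap, against a background of 50.9% of genes. Between Met and FK, where 43.9% of genes did not overlap, TRIB3 was 2.44 higher in Met (SE 0.12).

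**Figure D1:**
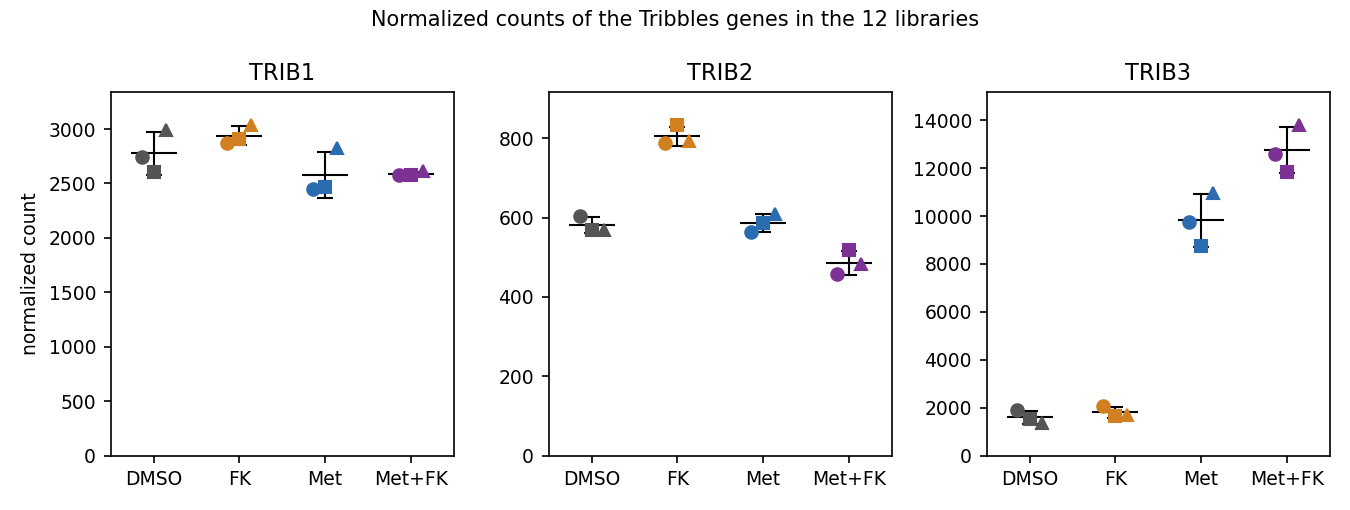
Normalized counts of TRIB1, TRIB2 and TRIB3 (vertical axes, each from 0) in the 4 treatments (horizontal axes), with circles, squares and triangles for replicates 1, 2 and 3 and black lines for the mean ± SD. TRIB3 lies between 1355 and 2082 without metformin and between 8766 and 13795 with it, TRIB2 is highest in FK and lowest in Met+FK, and TRIB1 stays between 2446 and 3036.

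TRIB3 occupies 362835 to 397559 on the plus strand of chromosome 20 (hg38), and its main transcript starts with an untranslated exon at 380760 to 381169. This exon carries a tandem repeat whose 33-base unit holds a match to the C/EBP-ATF composite element TGATGNAA, the element bound by ATF4 with a C/EBP partner. The 3 matches start 132, 165 and 198 bases downstream of the start site, at chr20:380892-380899, chr20:380925-380932 and chr20:380958-380965, and read on the strand opposite to the gene. Repeat units 1 and 2 are identical over all 33 bases, and the third differs from them at 4. The 20 bases around each match are the same in all 3 units, and they are shown with the composite elements of 6 genes of the ATF4 and CHOP list described further on, those with a match among the genes that the naming rules pick, in the direction of the motif and with the element in capitals, so that the shared letters can be compared.
TRIB3, all 3 units: tccgggTGATGCAAaccgga
ASNS: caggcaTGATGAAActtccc
ATF3, first element: cactggTGATGCAAgttcgg
ATF3, second element: aaggggTGATGCAAcgctct
DDIT3: cggggaTGATGCAAtgtttg
NUPR1: cctgtcTGATGCAAtctggc
SESN2: gttgcgTGATGAAAagggac
SLC7A11, first element: aaatgaTGATGCAAattctc
SLC7A11, second element: tgtggcTGATGCAAacctgg

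Windows of 500 bases on either side of the main start site, a size set after the TRIB3 repeat had been seen, were searched on both strands for 15324 of the genes tested. At least 1 composite element was found in 6.02% of the windows, and 3 or more in 5 windows (0.0326%), of which TRIB3 was 1. Of the 25 genes of the ATF4 and CHOP list, 13 had at least 1 match and none had 3. The 7 whose elements are not shown were CBS, CHAC1, JDP2, PCK2, PSAT1, SHMT2 and VLDLR, of which SHMT2, a gene not called with metformin, had 2 matches. The elements of ASNS, NUPR1 and SLC7A11 lie 68, 91, 76 and 95 bases upstream of the main start sites, and those of ATF3, DDIT3 and SESN2 also upstream, whereas those of TRIB3 lie within its main transcript. This placing depends on the start site taken, since the RefSeq promoter windows of TRIB3 start downstream of the repeat. Neither TRIB1 nor TRIB2 had a match. The cAMP response element TGACGTCA and the C/EBP palindrome TTGCGCAA matched none of the 3 Tribbles windows (4.2% and 0.476% of all windows had at least 1). Such matches are a description of the letters and no evidence of binding in these cells.

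**Figure D2:**
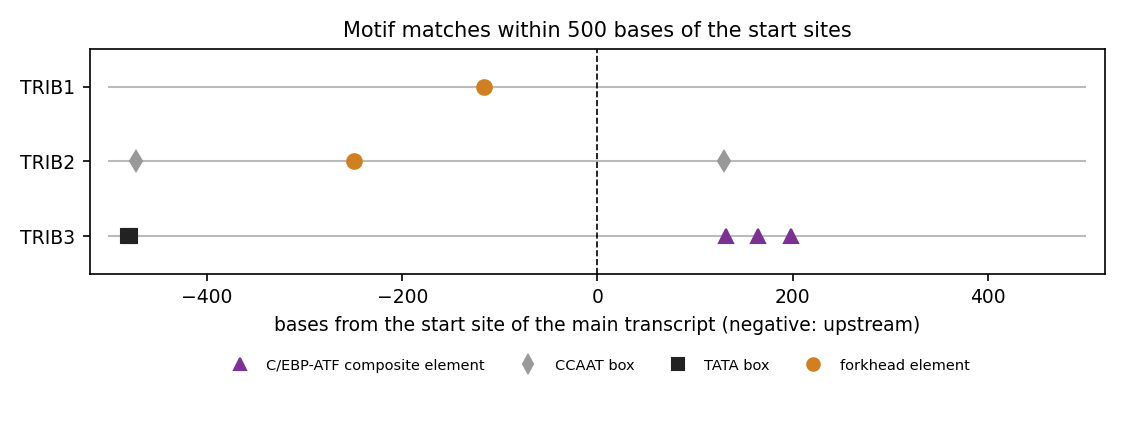
Matches to the composite element, the CCAAT box, the TATA box and the forkhead element (symbols) by distance in bases from the main start site (horizontal axis, 500 bases to either side, dashed line at the start site) for TRIB1, TRIB2 and TRIB3 (rows). The 3 triangles of TRIB3 sit 132 to 198 bases downstream, and no triangle is drawn for TRIB1 or TRIB2.

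The FK866 differences of TRIB2 had opposite signs with and without metformin. Its normalized counts were 604, 568 and 570 in DMSO and 789, 833 and 793 in FK, where all libraries were higher than in DMSO. Groups that do not overlap were seen for 38.8% of the genes tested in this comparison. The means of 581 ± 19.9 and 805 ± 24.5 (SD, n = 3) gave a log2 difference of 0.47 (SE 0.08), or 1.39-fold, and 9.39% of the genes tested had a larger one. With metformin alone the counts were 563, 588 and 610 and overlapped the DMSO libraries, with a log2 difference of 0.02 (SE 0.08). When libraries were scaled to the same total this value was 0.14, where the median of all genes also moved, from 0.01 to 0.13.

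In Met+FK the TRIB2 counts were 457, 519 and 482, the lowest of the 12 libraries. They lay below those of Met, without overlap as for 13.4% of the genes tested, with a log2 difference of -0.27 (SE 0.08), or 1.21-fold lower, and 7.02% of the genes tested had a more negative difference. They also lay below those of DMSO, by a log2 difference of -0.26 (SE 0.08), a comparison in which 60.9% of all genes did not overlap. The distance from FK was the largest, at -0.73 (SE 0.08), or 1.66-fold lower, where 50.9% of the genes tested did not overlap. The FK866 difference in the presence of metformin less the one in its absence was thus -0.74 (SE 0.12) for TRIB2, and 3.21% of the genes tested had a lower value. For TRIB3 the same quantity was 0.19 (SE 0.17) and for TRIB1 -0.08 (SE 0.11). That of TRIB3 was -0.06 with the trend on GC content and length removed. The differences between members were not tested.

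TRIB2 lies on the plus strand of chromosome 2, from 12716889 to 12742734 (hg38), with 3 exons in its main transcript. The RefSeq promoter window of 300 bases (GRCh38.p14) opens with a forkhead element, TGTTTAC, the core bound by FOXO and other forkhead factors. It starts 249 bases upstream of the main start site, at chr2:12716687-12716693, and is shown in capitals because the FOXO factors and their target genes are described further on.
TRIB2: tTGTTTACctccccggccgg

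A forkhead element occurred in 3.42% of the 35116 RefSeq promoter windows and in 6.88% of the wider windows around the start sites of the genes tested, among them those of TRIB1 and TRIB2 with 1 each. The wider window of TRIB2 also held 2 CCAAT boxes, which 61.6% of windows have at least once, and that of TRIB3 held 2 overlapping TATA boxes near its upstream end, an element present in 18.5% of windows. The 3 RefSeq windows of TRIB3 start downstream of the repeat and held no match to any of the 6 motifs searched.

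TRIB1 was nearly level across the treatments. Its normalized counts were 2740, 2601 and 2987 in DMSO, 2875, 2904 and 3036 in FK, 2446, 2472 and 2822 in Met, and 2578, 2578 and 2610 in Met+FK. The groups overlapped except that both metformin groups lay below FK, where 43.9% (Met) and 50.9% (Met+FK) of the genes tested did not overlap. The highest library was only 1.24-fold the lowest, against 1.82-fold for TRIB2 and 10.2-fold for TRIB3.

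Relative to DMSO, the log2 differences of TRIB1 were 0.08 in FK, -0.11 in Met and -0.10 in Met+FK (SE 0.08 each). That of Met turned to 0.02 when libraries were scaled to the same total, so no direction is given for it. Against FK, TRIB1 was lower by 0.19 in Met and by 0.18 in Met+FK on the log2 scale, and 0.09 lower in Met under the scaling to the same total. Between Met+FK and Met the difference was 0.01 (SE 0.08). The gene spans 8046 bases in 3 exons, and none of the 3 genes overlaps another gene of the deposited table.

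**Figure D3:**
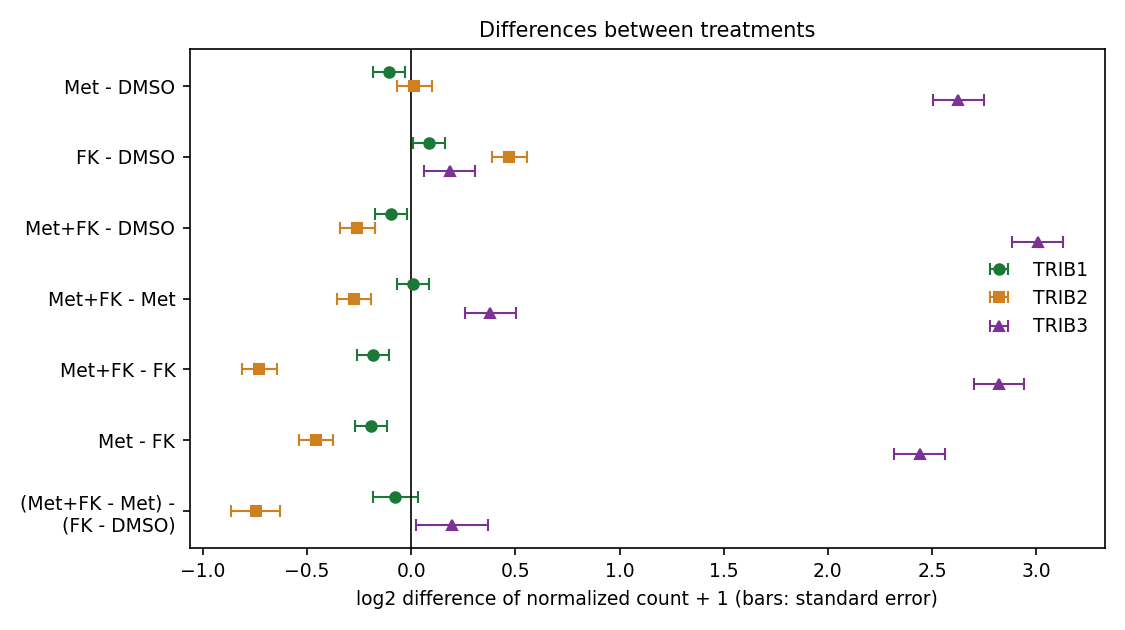
Log2 differences between treatments (horizontal axis, log2 of normalized count + 1, bars are standard errors) for TRIB1, TRIB2 and TRIB3 in each comparison (rows), the last row being the FK866 difference within metformin-treated cells less the one within cells without metformin. TRIB3 stands at 2.44 to 3.01 wherever a metformin group is compared with a group without it, and TRIB2 stands at 0.47 for FK against DMSO but at -0.27 for Met+FK against Met.

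Levels of different genes were compared per kilobase of exon, over 4.099 kb for TRIB1, 4.567 kb for TRIB2 and 3.291 kb for TRIB3. In DMSO, TRIB1 had 677 ± 47.7 normalized counts per kb (SD, n = 3), TRIB3 485 ± 81.7 and TRIB2 127 ± 4.35. The order TRIB1, TRIB3, TRIB2 also held in FK, at 717 ± 20.9, 550 ± 71.7 and 176 ± 5.36. With metformin TRIB3 moved to the top, at 2983 ± 331 in Met and 3875 ± 297 in Met+FK, while TRIB1 stood at 629 ± 51.3 and 631 ± 4.49 and TRIB2 at 129 ± 5.08 and 106 ± 6.84.

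With these exon lengths, no neighbours in these orders overlapped in any treatment. The lengths join the exons of all transcripts of a gene. The main transcripts are shorter, at 3596 bases for TRIB1, 4344 for TRIB2 and 2356 for TRIB3. Levels were not calculated over those lengths, so the order of TRIB1 and TRIB3 in DMSO and FK, and its lack of overlap, are stated only for the lengths used. The lowest TRIB1 library in DMSO had 635 per kb and the highest TRIB3 library 573, and in FK these values were 701 and 633. TRIB3 made up 37.5% ± 4.64 of the summed level of the family in DMSO, 38.0% ± 3.45 in FK, 79.7% ± 1.08 in Met and 84.0% ± 1.02 in Met+FK (SD, n = 3). The summed level of the 3 genes per kb was 1290 ± 75.1 in DMSO and 4613 ± 298 in Met+FK. By level per kb, TRIB3 was above 79.1% of the genes ranked in DMSO and above 98.3% in Met+FK, while TRIB1 stayed above 84.9% to 86.1% and TRIB2 above 46.0% to 56.8% in the 4 treatments.

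**Figure D4:**
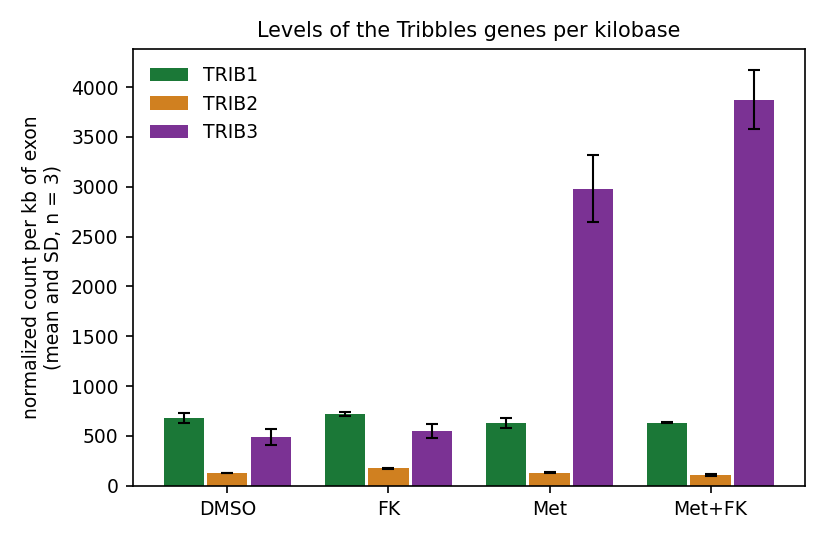
Normalized counts per kilobase of exon (vertical axis from 0, bars are means and lines the SD of 3 libraries) for TRIB1, TRIB2 and TRIB3 in each treatment (horizontal axis). TRIB1 is the highest in DMSO and FK, at 677 and 717, and TRIB3 in Met and Met+FK, at 2983 and 3875.

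The genes of the ATF4 and CHOP programme, to which TRIB3 is usually counted, were tested as a list of 25 genes without TRIB3. This list and the ones below were put together with earlier results of these libraries known. A gene was called when its adjusted p was below 0.05 and its fold change above 1.5. With metformin 23 of the 25 genes rose and 1 fell, where 12.8% of all genes tested rose and 10.2% fell (1964 and 1566 genes, and 2835 and 1025 with libraries scaled to the same total), and the median log2 fold change of the list was 1.503 against 0.01 for all genes. ATF4, the master factor of the programme, rose from 14469 ± 1091 to 26674 ± 700 normalized counts (SD, n = 3), a log2 fold change of 0.88 (SE 0.07, adjusted p = 2.61e-07). DDIT3, which encodes CHOP, rose by 2.82 (SE 0.13, adjusted p = 1.58e-09), from 791 ± 98.9 to 5602 ± 760.

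The 3 largest log2 fold changes of the list belonged to NUPR1, a small stress-induced chromatin protein (3.01, SE 0.22), to DDIT3 and to ATF3, a stress-induced bZIP factor (2.62, SE 0.08). The value of TRIB3 lay between those of DDIT3 and ATF3. ATF5, a bZIP factor controlled by translation much as ATF4 is, was the gene that fell, at -0.61 (SE 0.11, adjusted p = 0.000441). Its call was lost when libraries were scaled to the same total (-0.49), with TMM scaling (-0.58), with edgeR (-0.58) and with the GC and length trend removed (-0.45). It was also lost without DMSO replicate 3 (-0.58) or Met replicate 2 (-0.55). SHMT2, which feeds serine into one-carbon metabolism, did not pass the test (-0.07, SE 0.10).

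With FK866 alone 5 of the 25 genes rose and none fell, against 2.73% and 0.754% of all genes, and the median log2 fold change was 0.39 against -0.02 for all genes. The 5 were ATF3 (1.33, SE 0.08), the cystine transporter gene SLC7A11 (1.04, SE 0.18), the asparagine synthetase gene ASNS (0.83, SE 0.16), the secreted glycoprotein gene STC2 (0.77, SE 0.10) and the ubiquitin ligase adaptor gene KLHL24 (0.67, SE 0.15). Calls with FK866 depended on single libraries. Over all genes, 536 were called, whereas 94 were called without DMSO replicate 1, 181 without DMSO replicate 3, 100 without FK replicate 2, 1202 without DMSO replicate 2 and 1153 without FK replicate 1.
KLHL24 lost its call without DMSO replicate 1 (0.70), DMSO replicate 3 (0.59) or FK replicate 2 (0.47), and with the GC and length trend removed (0.21), as SLC7A11 also did with that trend removed (0.55). When only the DMSO and FK libraries were fitted, ASNS (adjusted p = 0.0543) and KLHL24 (adjusted p = 0.058) lost their calls. ATF4 itself did not pass the test between FK and DMSO (-0.01, SE 0.07, adjusted p = 0.901), and DDIT3 was at 0.39 (SE 0.13, adjusted p = 0.0458), under the fold threshold.

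In Met+FK, 22 of the 25 genes rose against DMSO and none fell, where 13.7% of all genes rose and 11.3% fell. The median log2 fold change of the list was 1.63. VLDLR, ATF5 and SHMT2 were not called in this comparison. Without DMSO replicate 2 or without Met+FK replicate 3, 1 gene of the list fell instead of none. Against Met alone, 1 of the 25 genes rose, which was ATF3 (0.66, SE 0.08, adjusted p = 0.00272), and none fell, where 8 of the genes tested rose (0.0520%) and 1 fell (0.00650%). Without Met replicate 3, 2 genes of the list rose. In a fit blocked on replicate number, 18 genes rose and 7 fell over all genes, and ATF3 was again the only gene of the list that rose. DDIT3 stood at 0.38 (SE 0.13, adjusted p = 0.515) in this comparison, close to the 0.38 of TRIB3 described above.

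**Figure D5:**
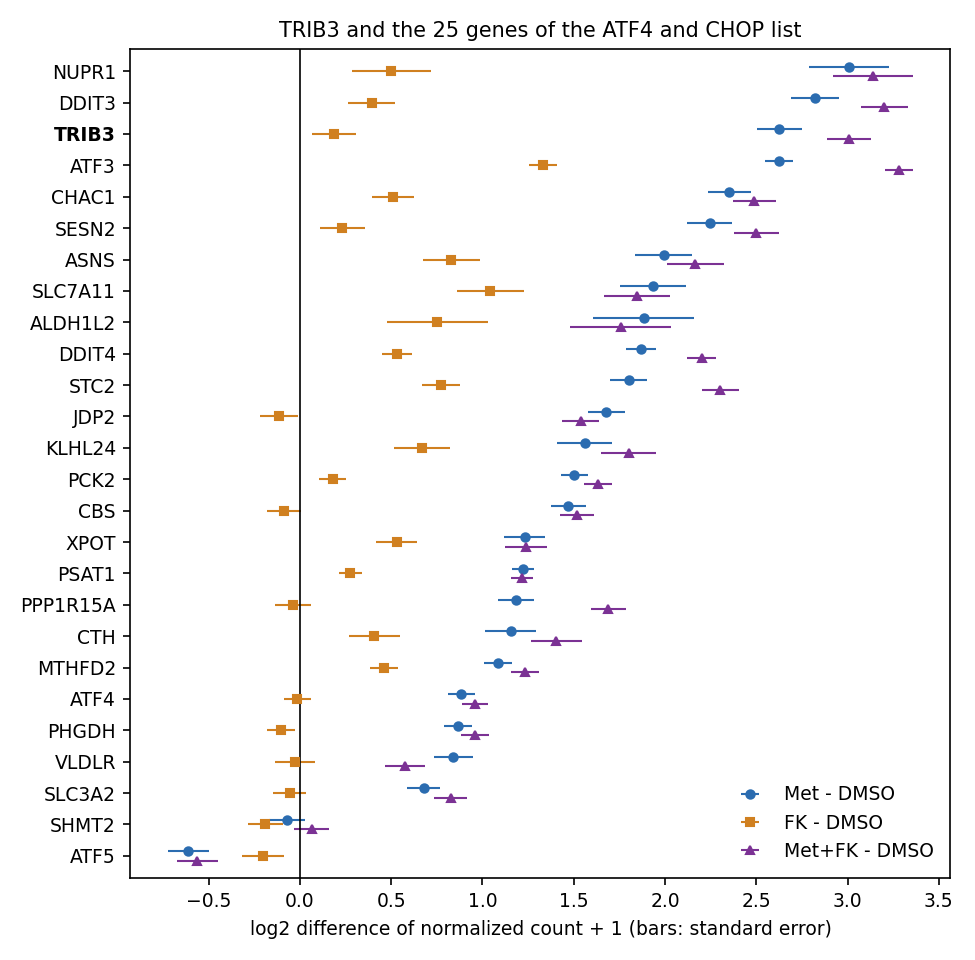
Log2 differences from DMSO (horizontal axis, log2 of normalized count + 1, bars are standard errors) of TRIB3 (bold) and the 25 genes of the ATF4 and CHOP list (rows, ordered by the Met value) for Met (circles), FK (squares) and Met+FK (triangles). TRIB3 is the third row from the top, at 2.63 for Met, while its FK value of 0.19 lies below the list's median of 0.39.

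In the main fit, which left out replicate number, 1 of the 61 genes of the 4 lists that could be tested passed for the interaction. This was ATF3, whose interaction term was -0.67 (SE 0.11, adjusted p = 0.0407). Over all genes 9 passed (0.0585%) in limma, and 4695 had an unadjusted p below 0.05. ATF3 was at 635 ± 31.8 normalized counts in DMSO, 1603 ± 120 in FK, 3921 ± 120 in Met and 6194 ± 267 in Met+FK (SD, n = 3), so that it was higher with FK866 under both conditions. In the fit blocked on replicate number the adjusted p of ATF3 was 0.00291, and 22 of the 61 genes of the lists passed (36.1%), against 4914 of all genes tested (32%), a share close to that of the lists. Among the 22 were SLC7A11 (-1.13, adjusted p = 0.00268) and ASNS (-0.66, adjusted p = 0.00665). The number passing depended on single libraries: it was 7 of 61 (11.5%) without FK replicate 1, where 1845 of all genes (12%) passed, and 0 without any single one of the other 11 libraries. The adjusted p of ATF3 ranged from 0.0366 without FK replicate 1 to 0.181 without Met+FK replicate 3, and it was 0.0609 without a filter on low values.

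The list of the COP1 ligase and of the kinases that Tribbles proteins hold had 13 genes. With metformin 3 fell and none rose, against 10.2% and 12.8% of all genes tested, and the median log2 fold change was -0.13 against 0.01 for all genes. COP1 itself did not pass the test (0.08, SE 0.08, adjusted p = 0.412), at 1983 ± 81.7 normalized counts in DMSO and 2094 ± 156 in Met. RBX1, the RING subunit of cullin ligases, fell by 0.76 (SE 0.08), DDA1, a subunit of the DET1 and DDB1 complex, by 0.67 (SE 0.09) and AKT1 by 0.62 (SE 0.08). AKT2 (-0.53, SE 0.09) and STK40, a kinase related to the Tribbles family (0.41, SE 0.07), stayed under the fold threshold.

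None of the 13 was called with FK866 alone, where 3.49% of all genes tested were called, or for Met+FK against Met, where 0.0585% were. RBX1, DDA1 and AKT1 also fell in Met+FK against DMSO, where 11.3% of all genes fell. Neither AKT1 nor DDA1 was called for Met against DMSO with the GC and length trend removed, at -0.46 and -0.53. With libraries scaled to the same total, AKT1 (-0.50) and DDA1 (-0.54) also lost their calls. AKT1 lost it as well in edgeR (-0.58) and without Met replicate 2 (-0.57).

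Among the C/EBP factors and other reported substrates, 12 of 13 genes could be tested, since CEBPE was hardly detected. With metformin 3 rose and 1 fell, against 12.8% and 10.2% of all genes tested, with a median log2 fold change of 0.06. CEBPG, the small C/EBP partner of ATF4, rose by 1.59 (SE 0.12, adjusted p = 9.61e-08) and CEBPB, a C/EBP factor active in stressed cells, by 0.88 (SE 0.08, adjusted p = 7.29e-07). The forkhead factor gene FOXO3 rose by 0.78 (SE 0.10), and CDC25C, a phosphatase gene of the entry into mitosis, fell by 0.71 (SE 0.09). CEBPA, the gene of the substrate C/EBPα, did not pass the test (0.05, SE 0.14, adjusted p = 0.788), and its sign changed without DMSO replicate 2 (-0.06), Met replicate 1 (-0.01) or Met replicate 3 (-0.02).

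In Met+FK against DMSO the count was again 3 higher and 1 lower, against 13.7% and 11.3% of all genes. None of these genes was called for FK against DMSO, where 3.49% of all genes tested were called, or for Met+FK against Met, where 0.0585% were. Without DMSO replicate 2, 1 gene was called higher with FK866.

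Of 12 FOXO target genes 11 could be tested, PDK4 being hardly detected. With metformin 3 of these rose and none fell, where 12.8% of all genes tested rose and 10.2% fell. The 3 were GADD45A, a DNA damage and stress gene (1.47, SE 0.10), the insulin receptor substrate gene IRS2 (1.25, SE 0.16) and PIK3IP1, an inhibitor of PI3 kinase (0.68, SE 0.20). PIK3IP1 lost its call without DMSO replicate 1 (0.58) and with a pseudocount of 10 (0.55). With FK866 2 rose, against 2.73% of all genes, IRS2 (1.12, SE 0.16, adjusted p = 0.00181) and the thioredoxin inhibitor gene TXNIP (1.01, SE 0.09, adjusted p = 3.93e-05).

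In Met+FK, 6 of the 11 FOXO target genes rose against DMSO, where 13.7% of all genes rose. Against Met, 1 of the 11 rose, TXNIP (0.61, SE 0.09, adjusted p = 0.022), where 0.0520% of all genes rose. TXNIP had not passed the test between Met and DMSO (0.16, SE 0.09, adjusted p = 0.18). This call was lost without Met replicate 2 (0.58) or 3 (0.57), without Met+FK replicate 1 (0.61), 2 (0.57) or 3 (0.65), and when libraries were scaled to the same total (0.57). TXNIP was at 745 ± 74.7 normalized counts in DMSO, 1496 ± 44.6 in FK, 829 ± 76.5 in Met and 1266 ± 71.2 in Met+FK (SD, n = 3).

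The genes whose pattern was most like that of each member were ranked by Pearson's r of the log2 values over the 12 libraries, among 11520 other genes with a mean of at least 100. These values are descriptions, since the points share treatments and scaling factors. For TRIB3 they were SESN2 (r = 0.999), a stress-induced regulator of mTORC1 that is also in the ATF4 and CHOP list, CARS (0.998), the cysteinyl-tRNA synthetase gene, ADM2 (0.997), a peptide hormone gene, RGS3 (0.997), a regulator of G-protein signaling, and SLC1A4 (0.996), a neutral amino acid transporter gene. SESN2 had 1430 ± 261 normalized counts in DMSO, 1671 ± 209 in FK, 6736 ± 742 in Met and 8017 ± 591 in Met+FK (SD, n = 3), which is the order of TRIB3.

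For TRIB2 the genes were RIC8B (r = 0.932), a chaperone of G-protein subunits, the transcription factor gene EBF1 (0.930), the steroid sulfatase gene STS (0.929), the cell surface hyaluronidase gene CEMIP2 (0.917) and the interferon-induced gene IFIT3 (0.913). CEMIP2 had means of 2383 in DMSO, 3437 in FK, 1779 in Met and 1499 in Met+FK. Unlike TRIB2, it was thus also lower in Met than in DMSO by its means. For TRIB1 they were IQCN (0.942), DNMBP (0.941), MGAT5 (0.926), MZF1-AS1 (0.924) and COL22A1 (0.922), genes whose means, like that of TRIB1, were highest in FK. MZF1-AS1 is an antisense gene, and its reads cannot be told from those of the opposite strand unless the counting used strand. Among the members themselves, r was 0.68 between TRIB1 and TRIB2, -0.69 between TRIB1 and TRIB3 and -0.66 between TRIB2 and TRIB3.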

How the data were processed

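Total RNA of KP4 cells (ribosomal RNA removed) was sequenced as paired reads in 12 libraries. Per the paper's methods, the authors used cutadapt for trimming, STAR for alignment (hg38), featureCounts for counting pairs and DESeq2 for normalization. Annotation and strand setting are not given in the sources used here. The deposited values are a signal, gene counts divided by a size factor per library (0.867 to 1.21). All values (100%) were whole multiples of the library's smallest step within 0.01, which recovered the read pairs. Columns were matched to samples by treatment and number.

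Genes whose mean reached 10 (15376) were tested, and their log2(normalized count + 1) was fitted with limma 3.58.1 (trend, R 4.3.3), with 1 mean per treatment and all libraries together. Standard errors, also those of the members, are moderated, with the spread of each gene drawn toward a trend over all genes tested. They therefore do not follow from the SD of a gene alone. Adjusted p-values are Benjamini-Hochberg over all these genes. A call needed an adjusted p below 0.05 and a fold above 1.5 (no fold for the interaction). A fit of 1 comparison of 3 against 3 libraries was tried on simulated counts. The fit of all treatments together, the interaction and the replicate block were not tried in this way. Members and lists were chosen with earlier results of these data known. Genes were named by rule: ATF4, DDIT3, COP1, AKT1, AKT2, STK40, CEBPA, CEBPB and CEBPG, the 3 largest and 3 smallest called metformin changes of each list, all list genes called for FK against DMSO or Met+FK against Met, and the 5 genes most like each member. SHMT2, VLDLR, CEBPE, PDK4, KLF15 and the genes listed for a motif match alone were named after their values were seen. One gene of the COP1 list and one ductal marker are not reported here, and counts leave them out.

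Positions are those of the deposited table with 1 added to the start, after which 83.6% of 36366 genes equal GENCODE 44, the source of exon lengths and start sites. No replicate pair matched within sampling noise (lowest chi-square over its degrees of freedom 5.31). Nothing says that replicates came from separate cultures, so p-values measure only the spread between these samples. Deviations of same-numbered libraries correlated at 0.252, 0.42 and 0.219 between DMSO and FK and at 0.171, 0.2 and 0.226 between Met and Met+FK, which were read as paired, but at 0.0129, 0.328 and 0.248 between DMSO and Met, which were not. The main fit left out replicate number throughout. This includes the interaction, although both of its differences join groups read as paired, and its count of calls depended on this choice. Alternatives were other pseudocounts (0.1 and 10), filters and scalings, a replicate block, only the libraries compared, edgeR 4.0.16 and DESeq2 1.42.0 on recovered reads, removal of a loess trend (span 0.3) on GC content and length, and leaving out each library.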

Additional observations from a re-analysis of the deposited data

Results flagged for a closer look

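TRIB2 was flagged because FK866 went with opposite differences in the presence and absence of metformin. All 3 FK libraries (789 to 833 normalized counts) lay above all 3 DMSO libraries (568 to 604), and all 3 Met+FK libraries (457 to 519) lay below all 3 Met libraries (563 to 610). Groups without overlap were seen for 38.8% of the genes tested between FK and DMSO and for 13.4% between Met+FK and Met. The difference between these differences was -0.74 (SE 0.12) on the log2 scale, and it was not tested, because TRIB2 was chosen with these values known. It stayed between -0.81 and -0.73 under the alternatives that kept all libraries, and between -0.79 and -0.70 when each of the 12 libraries was left out.

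ATF3 was flagged because its interaction term passed the test, at -0.67 (SE 0.11, adjusted p = 0.0407 in limma). FK866 went with a higher ATF3 level both without metformin, by 1.33, and with it, by 0.66 (log2), and the difference was smaller in metformin-treated cells.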

How the results depend on the processing

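Of the 21 log2 differences of TRIB1, TRIB2 and TRIB3, those of TRIB3 between groups with and without metformin and those of TRIB2 for FK against DMSO, Met+FK against Met and Met+FK against FK moved by less than the spread within groups under all alternatives run. The cause of the shifts below was not tested. With libraries scaled to the same total, TRIB1 was at 0.0157 for Met against DMSO (reversed), -0.0159 for Met+FK against DMSO and -0.0913 for Met against FK, and TRIB2 at 0.14, -0.18 and -0.36 in these comparisons. With the GC and length trend removed, with or without the replicate block, FK against DMSO was 0.17 for TRIB1 and 0.39 for TRIB3, and the FK866 difference with metformin less the one without was -0.18 for TRIB1 and -0.0614 for TRIB3 (reversed).

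The 1 gene of the ATF4 and CHOP list that fell with metformin was 0 genes under scaling to the same total, TMM, edgeR and the GC and length trend (with or without block), and 0 to 1 when single libraries were left out. The 5 that rose with FK866 were 3 when only the compared libraries were fitted. Leaving out single libraries gave 0 to 1 genes lower for Met+FK against DMSO and 1 to 2 higher for Met+FK against Met. In the COP1 list, genes lower with metformin were 1 under scaling to the same total, and with the GC and length trend removed, with or without block, 1 was lower for Met and for Met+FK against DMSO. In the C/EBP list, 0 were lower for Met+FK under scaling to the same total and 0 to 1 higher with FK866 when single libraries were left out. Among FOXO targets, 1 was lower for Met+FK with the GC and length trend removed (with or without block). Those higher for Met+FK against Met were 0 under scaling to the same total, 2 with only the compared libraries and with DESeq2, and 0 to 1 when single libraries were left out. Genes of the lists with an interaction were 0 without a filter on low values, 22 with the replicate block, 6 with DESeq2, 4 with the GC and length trend removed, 8 with that and the replicate block, and 0 to 7 when single libraries were left out.

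CEBPA for Met against DMSO ranged from -0.0648 to 0.187 when single libraries were left out. Over all genes, FK against DMSO gave 536 calls, against 112 with only the compared libraries and 199 with the GC and length trend removed; Met+FK against Met gave 9, against 25 with the replicate block; and the interaction gave 9, against 4914 with the block. The replicate block changed no other call of a list count. With 3 libraries a group, a low count of calls does not show that genes were level.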
